A study of Homo sapiens with 2 samples.

Results

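Interferon-stimulated genes form the set of transcripts that a cell raises when an interferon binds its receptor. The genes described here are 36 names fixed as a list, 35 protein-coding genes and the long noncoding RNA BISPR, and all 36 were found by gene name among the 58735 genes of the deposited table. They were measured by RNA sequencing of total RNA from U87MG, a human glioblastoma cell line in long use, cultured as spheres under stem cell conditions for a week. There were 2 libraries, a control library from cells given a control shRNA by lentivirus and a library labelled TRIP13 shRNA, whose virus was directed at TRIP13, an AAA+ ATPase of the spindle checkpoint. Puromycin selected stable clones in both cases, and how many clones a library holds is not given in the sources used here. With 1 library on each side, differences had no replicate check and no statistical test was possible.

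Interferons signal through paired receptors and the kinases JAK1 and TYK2 to a complex that holds STAT2 and IRF9 and binds the interferon-stimulated response element (ISRE) of target promoters. The products of those promoters sense viral RNA, degrade it, block its translation or hold new virus at the cell surface, and some feed back on the pathway. Glioma cells can carry a standing level of these transcripts without infection. BISPR is a long noncoding RNA that starts beside BST2, the tetherin gene, and runs away from it on the opposite strand.

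As a set, the coding genes showed no common direction between the libraries, while BISPR stood far apart from them. BISPR had 5.88 FPKM (fragments per kilobase of exon, divided here by the same total in both libraries) in the library labelled TRIP13 shRNA and 0.0508 FPKM in the control library, from 347 and 3 reads. In bulk RNA, fewer cells that express a gene and less RNA per cell cannot be told apart. The RNA sensor gene DDX58 was at the other end, with 1.83 against 4.68 FPKM. Among the coding genes OAS3 was the highest in ratio and DDX58, OASL, IFI44L and BST2 were the lowest of those with a mean of at least 1 FPKM.

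TRIP13 itself had 23.1 FPKM in the library that carries its name and 11.9 FPKM in the control library. This goes against the label, and every direction given here is between libraries as labelled. The libraries held 19903836 and 18871063 recovered reads, a ratio of 1.05, and the deposited FPKM values carry no correction for that ratio. Of 5 glioma and glial markers VIM had 427 against 442 FPKM, CD44 had 112 against 115 and NES had 2.21 against 5.23. GFAP had 28 against 92 reads and S100B had 4 against 0. CDKN2A, CDKN2B and MTAP, of a locus known to be deleted in U87MG, had at most 3 reads each in either library. Of 8 leukocyte and microglia markers, AIF1 and TYROBP had no read, CSF1R alone exceeded 1 FPKM (3.31 against 3.75), and the summed level was 3.50 against 4.37 FPKM. PTPRC and CD3E each had 0 against 11 reads. The plasmacytoid dendritic cell markers CLEC4C and LILRA4 had no read, and IL3RA had 4.47 against 3.89 FPKM. Of 4 endothelial markers the summed level was 2.88 against 5.24 FPKM, with CDH5 at 0 against 6 reads, PECAM1 at 1 against 45 and VWF at 6 against 75. The part of such cells in the results was not tested.

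The start region of BISPR is shown first because its neighbour BST2 shares it, and because both genes differed in opposite directions. Each sequence below is a RefSeq promoter window of 300 bases, from 250 before to 50 after a gene's start site, on build GRCh38.p14. Letters run 5′ to 3′ on the gene's own strand, and capitals mark matches to the ISRE core, which is GAAA, any 2 bases and GAAA again or, on the other strand, TTTC, any 2 bases and TTTC. The windows are chr19:17405436-17405735 on the plus strand for BISPR and chr19:17405581-17405880 on the minus strand for BST2.
BISPR: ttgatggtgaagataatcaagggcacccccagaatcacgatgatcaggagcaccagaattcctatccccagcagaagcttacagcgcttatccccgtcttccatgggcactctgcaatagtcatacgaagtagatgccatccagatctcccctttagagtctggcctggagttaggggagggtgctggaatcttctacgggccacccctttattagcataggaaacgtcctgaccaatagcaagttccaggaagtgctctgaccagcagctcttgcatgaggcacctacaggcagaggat
BST2: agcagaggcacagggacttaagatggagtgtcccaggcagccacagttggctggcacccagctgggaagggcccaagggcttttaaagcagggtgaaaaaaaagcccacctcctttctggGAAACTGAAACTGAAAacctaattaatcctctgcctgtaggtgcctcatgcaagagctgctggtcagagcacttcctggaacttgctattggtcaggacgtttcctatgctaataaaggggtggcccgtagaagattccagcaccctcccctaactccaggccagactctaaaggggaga
The 2 windows cover 155 bases in common. The BST2 window held 2 overlapping matches that read as a single run of capitals, at -130 to -115 from the BST2 start site. Counted from BISPR, the same bases lie 59 to 74 bases after its start, beyond the end of the BISPR window, which held none. Of the 2 RefSeq windows of MVB12A, the gene that overlaps BISPR on the same strand, 1 held a match. No value of the deposited table measures binding at these sites, so the matches are letters only.

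The ISRE core was looked for on both strands in every RefSeq window. Of 36 genes 29 were matched by symbol or synonym, DDX58 under its newer symbol RIGI. IFIT2, MX2, OAS2, OASL, IRF7, TRIM22 and USP18 were not matched. A match was found for 19 of the 29, or 65.5%, while 4.38% of all 27305 symbols and 3.57% of all 35116 windows held one. The STAT element known as GAS, searched as TTCNNNGAA, was found for 10 of the 29 (34.5%) and for 9.38% of all symbols. It can overlap the ISRE core, as it did in IFI27 and BST2. The genes below are shown because they had the highest and lowest log2 ratios among the other members whose window held the core. OAS3 (chr12:112938224-112938523, plus strand) and IFIT5 (chr10:89414318-89414617, plus strand) were at the high end. PARP14 (chr3:122680589-122680888, plus strand) and IFI44L (chr1:78620198-78620497, plus strand) were at the low end.
OAS3: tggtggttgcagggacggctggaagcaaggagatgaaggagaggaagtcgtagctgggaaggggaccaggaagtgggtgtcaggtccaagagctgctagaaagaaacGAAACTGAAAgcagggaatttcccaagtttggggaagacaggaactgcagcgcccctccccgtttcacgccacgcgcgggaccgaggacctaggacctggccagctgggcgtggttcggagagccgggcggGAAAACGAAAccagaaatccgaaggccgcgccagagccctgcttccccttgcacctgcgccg
IFIT5: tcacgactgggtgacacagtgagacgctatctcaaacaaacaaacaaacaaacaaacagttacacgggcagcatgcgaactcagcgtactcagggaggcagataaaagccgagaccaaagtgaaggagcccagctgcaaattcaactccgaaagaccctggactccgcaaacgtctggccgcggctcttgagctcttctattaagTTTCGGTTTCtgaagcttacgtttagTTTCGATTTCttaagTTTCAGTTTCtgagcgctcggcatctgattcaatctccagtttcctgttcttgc
PARP14: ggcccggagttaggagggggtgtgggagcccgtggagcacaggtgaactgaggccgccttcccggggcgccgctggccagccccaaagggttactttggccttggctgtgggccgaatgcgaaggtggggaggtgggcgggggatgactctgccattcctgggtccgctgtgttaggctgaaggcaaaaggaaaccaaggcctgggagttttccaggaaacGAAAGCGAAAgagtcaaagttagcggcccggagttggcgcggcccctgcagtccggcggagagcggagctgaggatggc
IFI44L: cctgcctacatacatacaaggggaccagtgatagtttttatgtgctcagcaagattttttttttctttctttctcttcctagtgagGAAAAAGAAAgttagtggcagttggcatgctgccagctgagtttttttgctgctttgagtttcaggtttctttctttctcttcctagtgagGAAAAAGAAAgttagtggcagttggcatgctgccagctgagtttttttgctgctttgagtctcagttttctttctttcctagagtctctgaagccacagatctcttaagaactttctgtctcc
OAS3 held 2 matches on the gene's strand, IFIT5 held 3 on the other strand, PARP14 held 1 and IFI44L held 2. The 14 matched genes with a core had log2 ratios, defined in the next paragraph, from -0.54 to 0.80, with 6 above and 8 below 0 and a median of -0.07. The 7 without one, BISPR and DDX58 among them, ran from -1.01 to 2.71, with 5 above and 2 below 0 and a median of 0.33. BISPR falls in this group because the matches of the BST2 window lie beyond the end of its own window. Among all tested genes 56.9% lay above 0 and 42.6% below. The difference between the groups with and without a core was not tested. These counts describe the genes with a mean of 1 FPKM or more.

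Genes were compared as the log2 ratio, log2 of (FPKM + 1) in the library labelled TRIP13 shRNA over (FPKM + 1) in the control library, which understates differences of weakly expressed genes. Of the 36 genes 25 had a mean of at least 1 FPKM, as did 13128 genes of every biotype in the table, and these are called tested although no statistical test is possible. A gene counted as at least 2-fold higher at a log2 ratio of 1 or more, and as at least 2-fold lower at -1 or less. By that rule BISPR alone of the 25 was higher, where 2.5% of all tested genes were. DDX58 alone was lower, where 5.61% of all tested genes were. This call ended with a pseudocount of 5, where DDX58 had a log2 ratio of -0.50, and OASL joined it with a pseudocount of 0.1 (-1.08) and as TPM (-1.14), the scale that gives both libraries the same summed level. Each count is 4% of the 25 genes, which is near the background in both directions. Restricted to protein-coding genes the background was 2.17% higher and 4.19% lower, and the 24 tested coding members held 0 higher and 1 lower.

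The median log2 ratio of the 25 genes was 0.08, and that of all tested genes was 0.09. Without BISPR the median of the 24 coding genes was 0.02, against 0.12 for 10671 tested protein-coding genes. Log2 ratios lay above 0 for 13 genes and below 0 for 12, where all tested genes had 56.9% above and 42.6% below. Of the 25, 19 lay between -0.5 and 0.5. Over all 35 coding genes the reads summed to 13032 for the library labelled TRIP13 shRNA against 13601 for the control library. That is a ratio of 0.958, with a 95% interval of 0.935 to 0.982 that covers counting error only. With each library divided by its own total the ratio was 0.908 (0.887 to 0.931). Single genes differed in both directions.

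**Figure D1:**
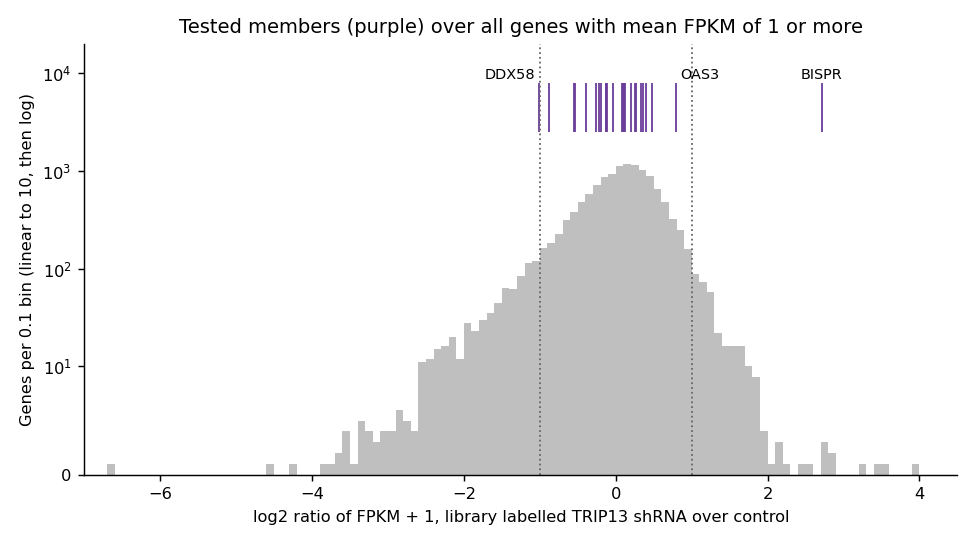
Histogram of the log2 ratio of FPKM + 1 (x axis) for 13128 tested genes in bins of 0.1 (y axis, linear to 10 and logarithmic above), with a purple tick for each of the 25 tested interferon-stimulated genes. BISPR lies alone at 2.71, DDX58 lies at -1.01 beside the dotted line at -1, and the other 23 lie between the dotted lines.

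Counting intervals tell which differences exceed the sampling of reads between these 2 libraries. They are exact (Clopper-Pearson) 95% intervals of the FPKM ratio, the library labelled TRIP13 shRNA over the control library, from the split of recovered reads. They cover counting error only, with no variation between cultures, and the reads carry no molecular identifiers that would make them independent molecules. The intervals of the ratio as deposited lay above 1 for 9 of the 25 genes, against 42.6% of all tested genes, and below 1 for 8, against 28.9%. With each library divided by its own total, 8 of the 25 tested genes had an interval above 1, against 37.4% of all tested genes. Another 8 had an interval below 1, against 32.9%, and 9 had an interval that included 1. The 8 higher genes were BISPR, OAS3, IFIT5, SAMD9L, IFI35, HERC6, TRIM22 and PARP9. The 8 lower genes were DDX58, OASL, IFI44L, BST2, STAT2, PARP14, IFI44 and DDX60. Here too the shares were near or under those of all genes. ISG15 had an interval above 1 only without the division by library totals.

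**Figure D2:**
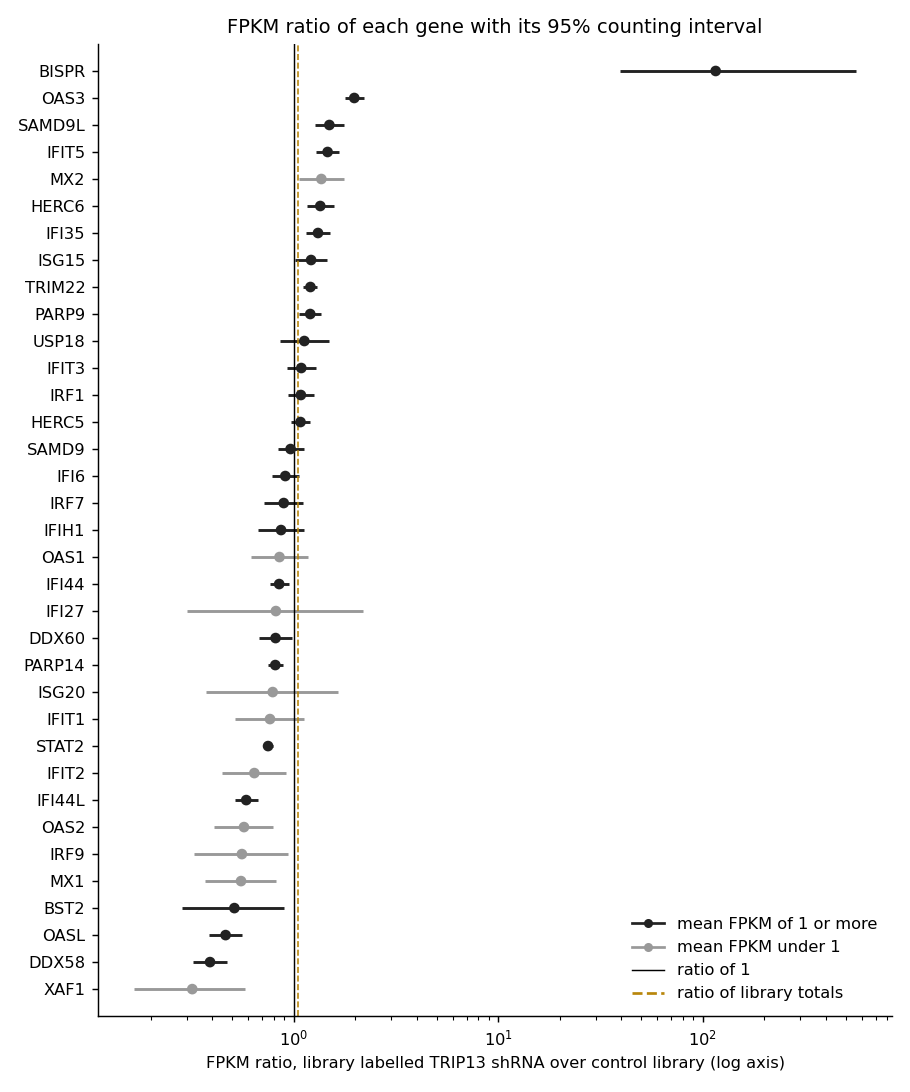
FPKM ratio of 35 genes (x axis, log scale) as points with bars for the 95% counting interval. The solid line marks a ratio of 1 and the dashed line the ratio of library totals, 1.05. RSAD2 is not drawn because it had no read in the control library. BISPR is at 116 with a lower bound of 39.3, and the other genes lie between 0.319 for XAF1 and 1.98 for OAS3.

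BISPR (ENSG00000282851, hg38 chromosome 19, 17405686 to 17419324, plus strand) is annotated as a lincRNA with 18 transcripts in GENCODE release 29. Its 347 against 3 reads gave an FPKM ratio of 116, with a counting interval of 39.3 to 564. Dividing each library by its own total gave 110 (37.2 to 534). The control library was close to empty for this gene, and a log2 ratio of 2.71 ranked it 8 of 13128 tested genes. That value depends on the pseudocount and the scale, and was 5.31 with a pseudocount of 0.1, 1.11 with 5 and 4.15 as TPM. BISPR passed the minimum mean of 1 FPKM only through the library labelled TRIP13 shRNA, where it was high, so its ranks are a description only. It ranked 1 of 434 tested lincRNAs, of which 10 passed the 2-fold rule upward and 60 downward. The median log2 ratio of those lincRNAs was -0.24, on the other side of 0 from BISPR.

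BST2 (ENSG00000130303, chromosome 19, 17402939 to 17405648, minus strand) encodes tetherin, a membrane protein that holds budding virus at the cell surface. It had 0.922 FPKM in the library labelled TRIP13 shRNA and 1.80 FPKM in the control library, on 20 and 39 reads. The library that was high in BISPR was thus the lower in BST2. The BST2 ratio was 0.513 (0.283 to 0.901), an interval that spans a wide range because few reads were found. BISPR had 6.38 times the FPKM of BST2 in the library labelled TRIP13 shRNA, whereas BST2 had 35.4 times the FPKM of BISPR in the control library. The 37 bases between the annotated ends of the genes hold no other gene.

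BISPR shares exons with other genes, which bears on how its reads were assigned. Of its 3045 exon bases 2201 belong to no other annotated gene. MVB12A, a subunit of the endosomal sorting machinery, starts 36 bases after BISPR on the same strand and shares 607 bases, or 19.9% of the BISPR exons. The antisense gene AC010319.4 shares 237 bases. MVB12A had 10.8 against 12.3 FPKM, from 850 and 966 reads, and its ratio was 0.880 (0.801 to 0.966). AC010319.4 had 13 against 7 reads. Neither neighbour showed the gap seen for BISPR. Whether reads of shared exons went to BISPR or MVB12A was not tested, since the strandedness of the counting, like its treatment of ambiguous reads, was not given in the sources used here, and the table holds no value per exon.

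Few other genes near BISPR were expressed. Of 13 genes within 50 kb, SLC27A1, a fatty acid transporter, had 3.41 against 6.54 FPKM, a ratio of 0.522 (0.469 to 0.579). PLVAP had 0 against 1 read and TMEM221 had 4 against 7. The remaining genes of the window, apart from BST2, MVB12A and AC010319.4, had no read in either library. BISPR was therefore the 1 gene of this window with a counting interval above 1. The window was set around BISPR, so this is a description only.

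**Figure D3:**
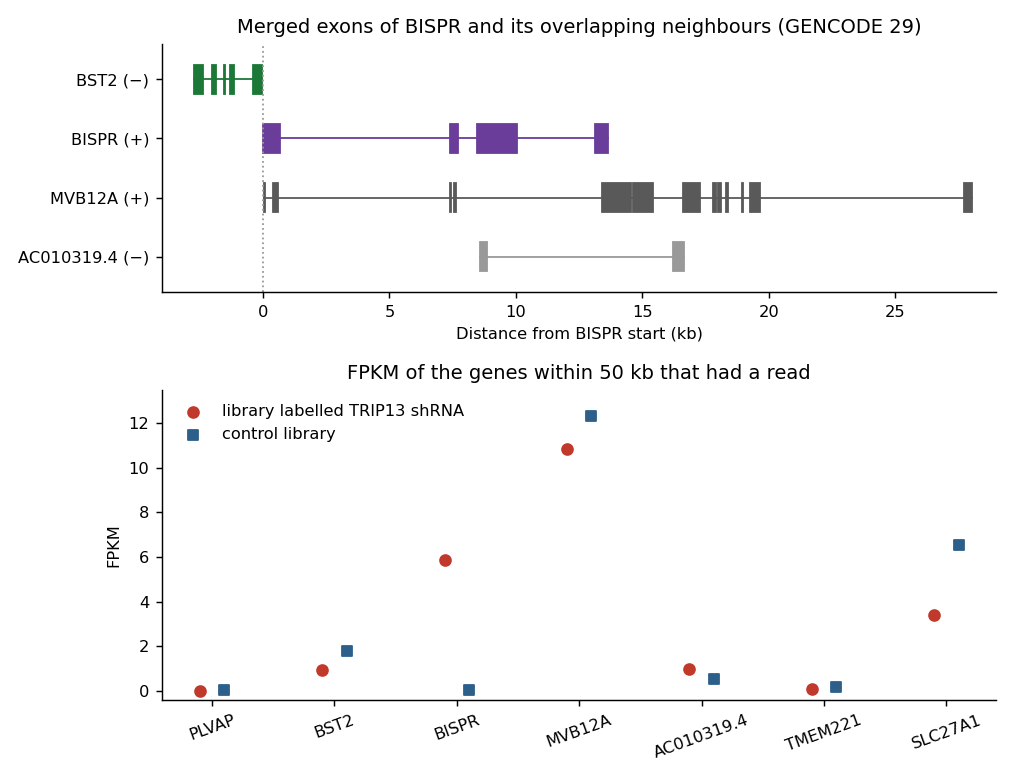
Upper panel, merged exons of BST2, BISPR, MVB12A and AC010319.4 by distance from the BISPR start in kb (x axis), with strand in brackets. Lower panel, FPKM (y axis) of each gene within 50 kb that had a read, red circles for the library labelled TRIP13 shRNA and blue squares for the control library. BISPR is at 5.88 against 0.0508 FPKM, while BST2, MVB12A and SLC27A1 are lower in the library labelled TRIP13 shRNA.

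The BISPR and BST2 pair was set beside other head-to-head pairs, a comparison chosen after its values were seen. A pair was a tested noncoding gene and a tested protein-coding gene on opposite strands whose starts lie within 1000 bases. BISPR counted as tested only through the library labelled TRIP13 shRNA, so the place of its pair among the others is a description only. There were 344 pairs, and 140 of them (40.7%) had log2 ratios of opposite sign. The log2 ratio of BISPR exceeded that of BST2 by 3.25, the widest gap of the 344 at a pseudocount of 1, where the median absolute gap was 0.43. PACERR and PTGS2 came next among pairs with the noncoding gene ahead, at a gap of 2.79.

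Of the 3 sensors of viral RNA among the 36 genes, 2 had a counting interval below 1 with each library divided by its own total, against the 32.9% of all tested genes given above. Other RNA sensors and effectors went both ways. TLR3, the endosomal sensor of double-stranded RNA, had 100 against 41 reads (ratio 2.44, 1.68 to 3.60). It was weakly expressed at 0.767 against 0.315 FPKM, so it was not among the tested genes. EIF2AK2, which encodes the kinase PKR, had 12.3 against 10.6 FPKM. DHX58, a relative of RIG-I, had 2.56 against 3.25 FPKM. TLR3, EIF2AK2 and DHX58 were picked after their values were seen. DDX58 (ENSG00000107201, chromosome 9, 32455705 to 32526324, minus strand) encodes RIG-I, which binds short double-stranded RNA with a 5′ triphosphate. It had 1.83 FPKM in the library labelled TRIP13 shRNA and 4.68 FPKM in the control library, on 154 and 395 reads. The control library was the higher by a ratio of 2.56, so the FPKM ratio was 0.390 (0.322 to 0.471). Its log2 ratio of -1.01 lay just past the size rule, and it ranked 722 from the bottom of the tested genes. DDX60, a helicase linked to RIG-I signalling, had 1.69 against 2.07 FPKM, a ratio of 0.815 (0.680 to 0.978). IFIH1 encodes MDA5, the sensor of long double-stranded RNA. It had 1.12 against 1.29 FPKM, and a difference was not detectable at this depth (ratio 0.867, 0.666 to 1.13).

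The transcription factors of the pathway were led by STAT2, which joins IRF9 in the complex that binds the ISRE. STAT2 (chromosome 12, 56341597 to 56360155) had 18.8 FPKM in the library labelled TRIP13 shRNA and 25.1 FPKM in the control library, from 2227 and 2972 reads. It was the most highly expressed of the 36 genes in the control library and was lower in the other. The ratio of 0.749 (0.709 to 0.792) is a moderate difference with a narrow interval. Its partner IRF9 was weakly expressed at 0.326 against 0.585 FPKM, from 24 and 43 reads, and 48.4% of its exon bases are shared with AL136295.5. IRF7, the amplifier of interferon alpha production, had 3.14 against 3.51 FPKM, and its ratio of 0.894 (0.718 to 1.11) included 1. IRF1, an interferon gamma target, had 2.65 against 2.44 FPKM, a ratio of 1.08 (0.939 to 1.25). For IRF1 22.0% of the exon bases are shared with genes of the opposite strand, of which C5orf56 had 97 against 95 reads.

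ISG15 is a ubiquitin-like protein that is attached to other proteins after interferon. Its 4 genes here had log2 ratios above 0, with a median of 0.19, although HERC5 turned just below 0 as TPM. Among all tested genes 56.9% lay above 0, and the median of all was 0.09. ISG15 itself had 15.7 against 12.9 FPKM, a ratio of 1.22 (1.02 to 1.45). HERC6, related to the ligase HERC5, had 3.62 against 2.68 FPKM, a ratio of 1.35 (1.16 to 1.57). It was the 1 gene of the 4 whose interval stayed above 1 after division by library totals. HERC5, the ligase that attaches ISG15, had 8.35 against 7.73 FPKM and a log2 ratio of 0.10, which was -0.01 as TPM. USP18, the protease that removes ISG15 and restrains the receptor, had 2.79 against 2.47 FPKM, a ratio of 1.13 (0.856 to 1.49).

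The IFIT proteins bind viral RNA and block its translation, and their genes lie side by side on chromosome 10 between 89283694 and 89421001. IFIT5 had 7.21 FPKM in the library labelled TRIP13 shRNA and 4.92 FPKM in the control library, from 561 and 383 reads. It was the member of the cluster with a clear difference upward, at a ratio of 1.46 (1.28 to 1.67). IFIT3 had 6.20 against 5.69 FPKM, a ratio of 1.09 (0.926 to 1.28). IFIT2 and IFIT1, both under 1 FPKM on average, pointed the other way. IFIT2 had 52 against 81 reads, a ratio of 0.642 (0.444 to 0.921), with 10.3% of its exon bases shared with other genes. IFIT1 had 49 against 64 reads, a ratio of 0.766 (0.517 to 1.13). The 4 neighbouring genes thus did not differ in 1 direction.

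The OAS enzymes make 2′-5′ oligoadenylate, which switches on the nuclease RNase L. OAS3 (ENSG00000111331, chromosome 12, 112938352 to 112973249, plus strand) had 6.15 FPKM in the library labelled TRIP13 shRNA and 3.11 FPKM in the control library, on 983 and 497 reads. The library labelled TRIP13 shRNA was higher by a ratio of 1.98 (1.77 to 2.21), the highest of the coding genes here, and it ranked 740 among all tested genes by log2 ratio. OAS1 and OAS2 flank OAS3 and were weakly expressed. OAS1 had 75 against 88 reads, a ratio of 0.852 (0.618 to 1.17), and OAS2 had 60 against 105 reads, a ratio of 0.571 (0.409 to 0.792). OAS3 therefore differed in the opposite direction to the neighbour on its other side, OAS2. OASL, a relative without the enzyme activity that aids RIG-I, lies apart on chromosome 12 (121019111 to 121039242). It had 2.60 FPKM in the library labelled TRIP13 shRNA and 5.59 FPKM in the control library, from 177 and 381 reads. OASL was low where OAS3 was high, at a ratio of 0.465 (0.386 to 0.557).

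**Figure D4:**
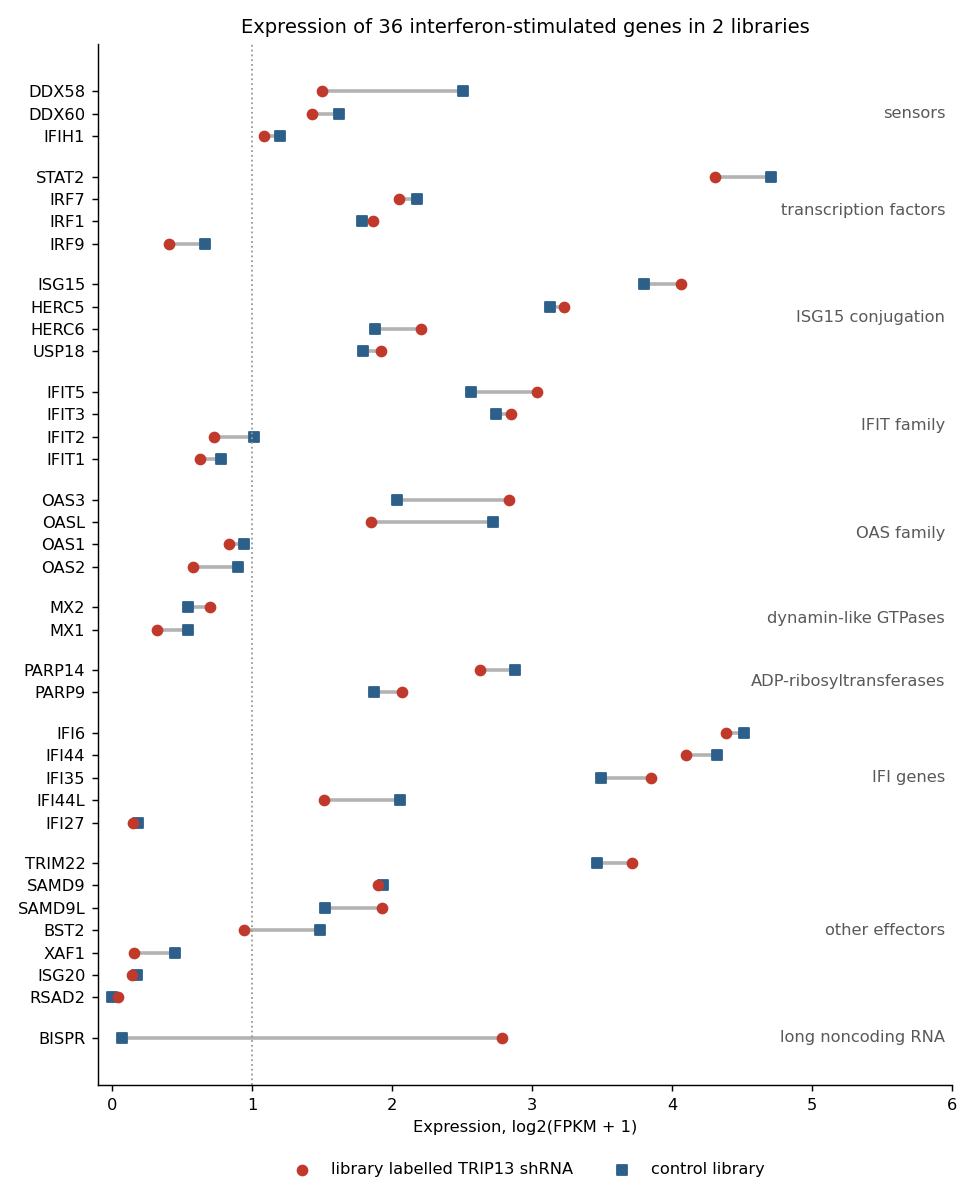
Expression of the 36 genes as log2(FPKM + 1) (x axis), grouped by role, with a red circle for the library labelled TRIP13 shRNA, a blue square for the control library and a grey line between them. The dotted line marks 1 FPKM. The longest line belongs to BISPR, and within the OAS family OAS3 and OASL differ in opposite directions.

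MX1 and MX2, dynamin-like GTPases that trap incoming virus, lie beside each other on chromosome 21 and were both under 1 FPKM. MX1 had 0.252 against 0.455 FPKM, from 42 and 76 reads, a ratio of 0.553 (0.370 to 0.816). MX2 had 0.621 against 0.455 FPKM, from 157 and 115 reads, a ratio of 1.37 (1.07 to 1.75). The pair again went opposite ways. PARP9 and PARP14, ADP-ribosyltransferases that modulate interferon responses, did so as well. PARP9 had 3.19 against 2.65 FPKM (ratio 1.20, 1.06 to 1.37) and PARP14 had 5.17 against 6.36 FPKM (ratio 0.813, 0.749 to 0.883). DTX3L, the partner of PARP9 and its neighbour on the opposite strand, had 10.7 against 10.1 FPKM.

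The genes named IFI differ in function. IFI6, a small membrane protein that limits cell death and viral replication, was highly expressed at 19.9 against 21.8 FPKM, and its ratio of 0.910 (0.782 to 1.06) included 1. IFI44 and IFI44L, neighbours on chromosome 1, both had the lower value in the library labelled TRIP13 shRNA. IFI44 had 16.1 against 18.96 FPKM (ratio 0.849, 0.763 to 0.945) and IFI44L had 1.85 against 3.16 FPKM (ratio 0.586, 0.514 to 0.668). IFI35, which associates with NMI, was higher, at 13.4 against 10.2 FPKM and a ratio of 1.31 (1.15 to 1.503). IFI27 is often among the most inducible genes of the set, yet it had only 9 against 11 reads.

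Among the other effectors, TRIM22, a ubiquitin ligase with antiviral activity, had 12.1 against 10.05 FPKM, a ratio of 1.21 (1.12 to 1.31). SAMD9 and SAMD9L are paralogs that lie side by side on chromosome 7 and restrict poxviruses. SAMD9L had 2.80 against 1.87 FPKM, a ratio of 1.49 (1.27 to 1.76), while SAMD9 had 2.73 against 2.83 FPKM, a ratio of 0.965 (0.833 to 1.12). The 2 paralogs thus differed in ratio, with intervals that do not overlap. XAF1, a promoter of cell death, had 15 against 47 reads, a ratio of 0.319 (0.166 to 0.581), the lowest of the 35 genes with a ratio. It shares 38.3% of its exon bases with PRAL on the opposite strand, which had 0 against 3 reads. ISG20, an RNA exonuclease, had 15 against 19 reads. RSAD2 encodes viperin, which makes a chain-terminating nucleotide, and it had 3 against 0 reads, at the floor of 3 reads below which no ratio is given.

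In all, 11 of the 36 genes had a mean under 1 FPKM, among them IFIT1, MX1, RSAD2, OAS2 and IFI27. With each library divided by its own total, 5 of the 11 had an interval below 1, 1 had an interval above 1 and 5 included 1. Their summed reads were 501 against 649, a ratio of 0.772 (0.686 to 0.869). Weakly expressed genes as a whole had a like ratio. The 10707 genes under 1 FPKM with 3 or more reads summed to a ratio of 0.781 (0.776 to 0.786). Of them 18.5% had an interval below 1 and 5.12% above. Those genes summed to 157680 against 201890 reads, fewer per gene than the 11 members. Fewer reads widen an interval, so these shares are not a like background for the 11.

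The ligands of the pathway were close to absent from the reads. Of 22 interferon genes 21 had no read in either library, IFNB1 among them, and IFNG had 0 against 3. At the depth of these libraries, 3 reads in a gene of 1 kb correspond to 0.155 FPKM. Of 16 receptor and JAK-STAT genes 12 were tested, with 7 log2 ratios above 0, 5 below, 0 past the rule upward, 1 past it downward and a median of 0.07, and PTPN1, JAK1, IFNAR1 and PIAS1 of the 7 turned below 0 as TPM. Among all tested genes 56.9% lay above 0 and 42.6% below, with 2.5% past the rule upward and 5.61% downward. With own totals, 1 of the 12 had an interval above 1 and 5 had an interval below 1, against 37.4% and 32.9% of all tested genes. At the low end IFNGR1, the ligand-binding chain of the interferon gamma receptor, had 2.80 against 7.86 FPKM (ratio 0.357, 0.299 to 0.424), and its partner IFNGR2 had 5.14 against 7.79. At the high end the phosphatase PTPN2 had 3.97 against 3.45 FPKM.

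Nucleic acid sensors and their adaptors lay on both sides of 0, as tested genes did in general. Of 20 genes 13 were tested, with 7 log2 ratios above 0, 6 below and a median of 0.16. Among all tested genes 56.9% lay above 0 and 42.6% below. AIM2, a sensor of cytosolic DNA, had 11.4 against 25.1 FPKM, a ratio of 0.452 (0.403 to 0.506). It was the 1 gene of the 13 at least 2-fold lower, where 5.61% of all tested genes were. IFI16, a related DNA sensor, had 30.1 against 40.8 FPKM. The adaptors TRAF3 and the RIG-I ligase TRIM25 were at the high end, at 11.7 against 8.75 and 11.8 against 9.40 FPKM. CGAS had 0 against 1 read and TMEM173, which encodes STING, had 17 against 11 reads. Of the other IRF factors 2 of 6 were tested, IRF2 at 7.87 against 14.6 FPKM and IRF3 at 23.3 against 24.3 FPKM.

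Of 47 further interferon-stimulated genes beyond the 36, 34 were tested, with 15 log2 ratios above 0, 19 below, none past the 2-fold rule in either direction and a median of -0.03, and IFITM3 and DTX3L of the 15 turned below 0 as TPM. With own totals, 9 of the 34 had an interval above 1 and 16 had an interval below 1, where all tested genes had 37.4% and 32.9%. SAMHD1, which depletes nucleotides, had 3.96 against 1.53 FPKM, and PNPT1, a mitochondrial RNA-processing enzyme, had 11.2 against 5.50. IFITM2, which blocks viral entry, had 2.57 against 5.58 FPKM, and TRIM38 had 2.02 against 3.61. Of 14 interferon gamma targets 7 were tested, with 3 above 0, 4 below and a median of -0.18. For both lists the shares of all tested genes were 56.9% above 0 and 42.6% below. Past the 2-fold rule they were 2.5% upward and 5.61% downward. ICAM1, an adhesion protein that NF-kB also induces, was at least 2-fold lower at 3.22 against 13.1 FPKM, and CD274, which encodes PD-L1, had 1.63 against 3.78. CIITA, the activator of HLA class II genes, had 2.39 against 1.03 FPKM and WARS, a tRNA synthetase, had 24.5 against 18.1. CXCL9 and CXCL10 had no read in either library and CXCL11 had 1 against 2 reads.

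**Figure D5:**
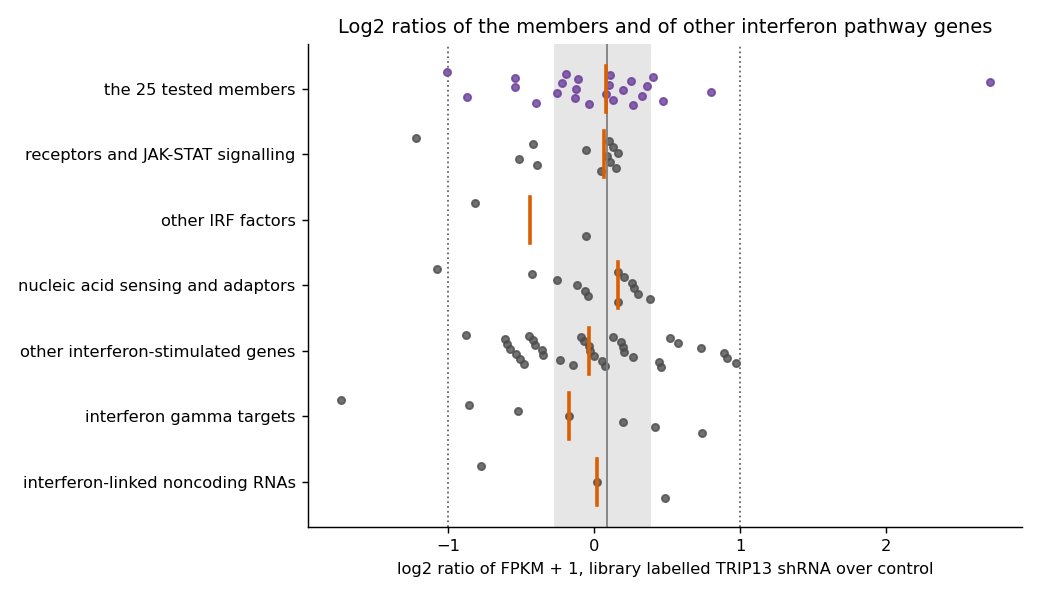
Log2 ratio of FPKM + 1 (x axis) of each tested gene, as points, for the 25 tested members and 6 further lists (y axis), with the median of each list as an orange bar. The grey band spans the middle 50% of all tested genes and the grey line their median of 0.09. BISPR at 2.71 is the only point beyond the dotted line at 1, and DDX58, IFNGR1, AIM2 and ICAM1 lie beyond the line at -1.

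Other noncoding RNAs tied to interferon showed no difference of the size seen for BISPR. NRIR, which lies beside RSAD2 and CMPK2 and is a known interferon-responsive transcript, had no read in either library. NRAV had 11.5 against 7.98 FPKM, in the same direction as BISPR (ratio 1.45, 1.24 to 1.68). LUCAT1 went the other way, with 5.21 against 9.64 FPKM (ratio 0.541, 0.509 to 0.574), and PSMB8-AS1 had 48 against 47 reads. EGOT had 3 reads in each library. Around the 36 genes, 23 noncoding genes overlapped or lay within 5 kb of a member, BISPR included, and 13 of them had no read. Only 3 of the 23 had 20 or more reads over both libraries, namely BISPR, C5orf56 beside IRF1 and AC010319.4 beside BISPR. C5orf56 had 0.514 against 0.504 FPKM, so BISPR was the 1 gene among these 3 with an interval above 1. BISPR reached 20 reads only through the library labelled TRIP13 shRNA, so this too is a description only.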

How the data were processed

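The authors deposited FPKM values per gene for both libraries. Build hg38 and the tools edgeR, featureCounts 1.5.0-p3 and HISAT2 2.0.5 appear, without roles or settings, per the submitters' processing notes. The annotation used for counting, and its strandedness, were not given in the sources used here. Positions of all 58735 genes equalled GENCODE release 29. The deposited FPKM times gene length was a whole multiple of 51.6 within 0.001 of a read for 100% of values, which gave the reads. A minimum mean of 1 FPKM, a pseudocount of 1 and a 2-fold rule were used, with 95% exact intervals and a floor of 3 reads. With 1 library per group no test was possible. All 36 members are named, and of each further list up to 2 tested genes at each end, less items withheld and not reported here. Other genes, named for their place or known role, were chosen after their values were seen. Members and lists were chosen with earlier results of these data known. Alternatives were TPM, own totals, a median ratio of 1, protein-coding genes only, no minimum, a minimum of 5 FPKM and pseudocounts of 0.1 and 5. Calculations were tested on simulated data. The software was matplotlib 3.10.9, scipy 1.17.1, pandas 2.3.3, numpy 2.4.6 and Python 3.11.15.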

Additional observations from a re-analysis of the deposited data

How the results depend on the processing

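No paired analysis was possible because neither library carries a replicate number and no library has a partner. The count of members at least 2-fold lower was 2, DDX58 and OASL, with a pseudocount of 0.1 and under TPM, and 0 with a pseudocount of 5 and with a minimum mean of 5 FPKM. The count at least 2-fold higher was 0 with that minimum and among protein-coding genes only, because BISPR is then left out. The median log2 ratio of members was -0.25 under TPM, where 32 members passed the filter, and -0.07 over all 36 without a filter. Over all genes the numbers higher and lower were 599 and 1143 with a pseudocount of 0.1, 69 and 231 with 5, 209 and 358 with a minimum of 5, and 781 and 2228 under TPM, and 447 protein-coding genes were lower. The median of all genes was 0.10 and 0.051 with pseudocounts of 0.1 and 5, 0.17 with a minimum of 5, and 0.12 among protein-coding genes. It was 0 without a filter, -0.069 under TPM, -0.00098 with the median ratio set to 1 and 0.022 with own totals. Single-gene alternatives were set against the counting interval of the main log2 ratio, with its pseudocount of 1, not that of the FPKM ratio. Of 180 such alternatives, 144 stayed inside that interval and 36 did not, and 0 members past the 2-fold rule turned direction. HERC5 and IRF1 turned sign under TPM, to -0.01 and -6.6e-05. Members with few reads, BST2 among them, have wide intervals at this depth.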
